A study of Mus musculus with 8 samples.

Results

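The 87 genes described here were higher in hair bulb transit-amplifying cells (TACs) that lacked Bmpr1a in 2 separate deletions, and did not reach the same difference in bulge stem cells (HFSCs). They were chosen from 10634 genes listed in all 3 expression tables with a mean of at least 1 FPKM (RNA fragments counted per unit of transcript length and of sequencing depth) in both TAC tables. A member had a difference of at least 1 in log2(FPKM + 1), deleted minus control, in Shh-CreER TACs and in K15-CrePGR TACs, and a difference under 1 in HFSCs. Symbols that start with Krt were left out, which removed 2 genes that met the other criteria, Krt79 and Krtdap. Of the kept genes, 129 (1.21%) met both TAC criteria, and 42 of these also reached 1 in HFSCs and are therefore no members. All differences in the 3 tables were used to choose the members, so they are given as a description and no test is read from them.

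Bmpr1a encodes a receptor of type I for the BMPs (bone morphogenetic proteins), secreted signals that activate Smad transcription factors. In the hair follicle, BMP signalling keeps bulge stem cells quiescent and is needed for matrix cells of the bulb to differentiate into the hair shaft and inner root sheath. TACs are the dividing matrix progeny of the stem cells, whereas the isthmus, sebaceous gland and infundibulum lie above the bulge.

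RNA was sequenced from follicle cells of mice of mixed strain in 8 libraries. Shh-CreER drives an inducible Cre from the Shh gene, which is active in matrix cells, and its TACs were collected at postnatal day 68 from 1 library of the conditional deletion (cKO) and 1 library labelled Het. K15-CrePGR drives an inducible Cre from a keratin 15 promoter, which is active in bulge stem cells, so TACs of these mice descend from targeted stem cells. They were collected at day 80 from KO samples 64 and 84 and WT samples 52 and 57. Bulge HFSCs of K15-CrePGR mice came at day 68 from 1 cKO and 1 Het library. The deleted mice carried Bmpr1a fl/fl. The sources used here do not give the alleles of the Het mice, the time of induction or how many animals gave a library.

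The libraries differed in more than Bmpr1a. Bmpr1a itself lay between 31.8 and 46.0 FPKM in all 8 libraries, a level for the whole gene that does not check the excision of a part of it. The BMP target Id1 was at 49.2 FPKM in cKO and 358 FPKM in Het Shh-CreER TACs, at 120 and 136 FPKM in KO 64 and KO 84 against 289 and 178 FPKM in WT 52 and WT 57, and at 111 FPKM in cKO and 297 FPKM in Het HFSCs. A list of 22 bulge markers summed to 5552 and 11642 FPKM in cKO and Het HFSCs, and in TACs to 839.5 FPKM in cKO and 472 FPKM in Het with Shh-CreER and to 919 and 864 FPKM in KO 64 and KO 84 against 237 and 290.2 FPKM in WT 52 and WT 57. Isthmus and infundibulum genes summed to 748 FPKM in cKO and 116 FPKM in Het Shh-CreER TACs, and to 416 and 928 FPKM in KO against 76.4 and 39.2 FPKM in WT samples. Dermal papilla genes summed to 558 FPKM in cKO and 308 FPKM in Het Shh-CreER TACs, and to 172 and 132 FPKM in KO against 75.2 and 70.5 FPKM in WT samples. These 3 sums were thus higher in every deleted TAC library, as was the sum of the members. So were the sums of other lists, among them outer root sheath and companion layer, fibroblast, endothelial, Schwann cell and epidermal differentiation genes. The part of any of these cells in the members' differences was not tested. Hair shaft genes summed to 863 FPKM in cKO and 8453 FPKM in Het Shh-CreER TACs, to 1366 and 811 FPKM in KO and 4570 and 3772 FPKM in WT K15-CrePGR TACs, and to 46.5 and 21.5 FPKM in HFSCs. KO 64 stood apart in markers of other cells: immune genes summed to 561 FPKM there and 101 FPKM in KO 84, against 49.7 FPKM in WT 52 and 18.7 FPKM in WT 57, and endothelial genes to 42.5 FPKM in KO 64 and 5.85 FPKM in KO 84, against 4.85 FPKM in WT 52 and 1.84 FPKM in WT 57. In Shh-CreER TACs, immune genes summed to 297 FPKM in cKO and 368 FPKM in Het, and endothelial genes to 42.7 and 25.2 FPKM. The female Xist RNA was at 3.26 FPKM in WT 52 and between 175 and 226 FPKM in the other K15-CrePGR samples, and at 3.98 and 68.9 FPKM in cKO and Het HFSCs. By these RNAs the cKO HFSC library read as male and the Het HFSC library as female, so sex and genotype cannot be told apart there. Of the 87 members, 0 lie on the X or Y chromosome. Whether members on other chromosomes differ by sex was not tested. In these bulk samples a larger share of cells of a type and more RNA per cell cannot be told apart.

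The 87 members ranged widely in level. In Shh-CreER TACs their median was 13.9 FPKM in cKO and 3.96 FPKM in Het, and their differences ran from 1.01 to 3.59 with a median of 1.43. In K15-CrePGR TACs the median was 8.46 FPKM in KO 64 and 7.81 FPKM in KO 84, against 1.67 FPKM in WT 52 and 1.37 FPKM in WT 57, and the differences ran from 1.00 to 2.97 with a median of 1.59. Over all kept genes, 2.27% were higher by at least 1 in Shh-CreER cKO TACs and 9.8% in K15-CrePGR KO TACs, and the median differences were 0.01 and -0.01. Summed over the members, the level was 2412 FPKM in cKO and 785 FPKM in Het Shh-CreER TACs, 1710 and 2007 FPKM in KO 64 and KO 84 against 573 and 515 FPKM in WT 52 and WT 57, and 5234 FPKM in cKO and 6598 FPKM in Het HFSCs. The rule fixed the direction of the sum in TACs. In HFSCs the sum was lower in cKO, and abundant members weigh most in it. Calm4 was at 590 FPKM in cKO and 1103 FPKM in Het HFSCs, and Ctgf at 310 and 559 FPKM. The median HFSC difference over the members was -0.06. In 86 of 87 members both KO samples lay above both WT samples, the exception being Cdh13, and 28.6% of all kept genes showed this pattern. The rule used this contrast, so nothing is read from the count. The pooled SD of replicates in log2(FPKM + 1) had a median of 0.35 over the members. In the limma fit over 13565 named loci, 1 member, Igfbp4, was called higher at an adjusted p under 0.05, and 0.0369% of loci were called in that direction. With a pseudocount of 5, no filter, quantile normalization, no trend or any sample left out, 0 members were called, so nothing rests on this call. At an unadjusted p under 0.05, 74 of the 87 members were higher, and nothing is read from this count either. Both Shh-CreER libraries and both HFSC libraries stand alone in their group, so their differences have no replicate check.

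**Figure D1:**
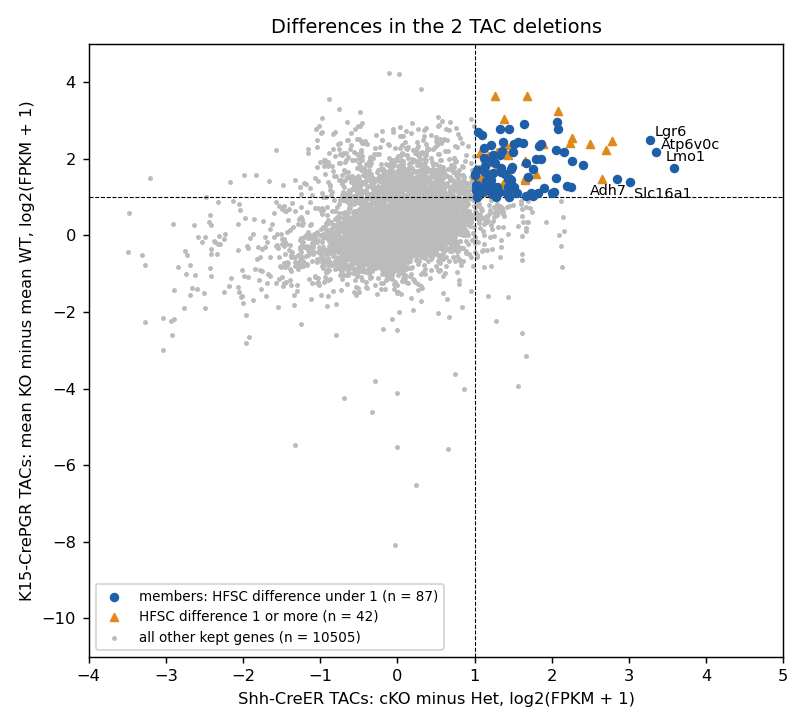
Each point is a gene kept in both TAC tables, placed by its difference in log2(FPKM + 1) in Shh-CreER TACs (cKO minus Het, horizontal) and in K15-CrePGR TACs (mean of 2 KO minus mean of 2 WT samples, vertical). Dashed lines mark the threshold of 1; the 87 members are blue circles, the 42 genes also higher by at least 1 in cKO HFSCs are orange triangles, and Lmo1, Atp6v0c, Lgr6, Slc16a1 and Adh7 lie farthest to the right among the members.

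The thresholds cut through a continuum. The members closest to the Shh-CreER threshold were Fgfr1 (difference 1.01), Dst (1.01) and Plscr4 (1.02), and the genes just outside it were Acsbg1 (1.00, rounded up from below 1), Itgb8 (0.99) and Penk (0.99). At the K15-CrePGR threshold Rcbtb1 (1.00), Pdgfc (1.00) and Enpp1 (1.02) were just inside, and Tbc1d4 (0.99), Elovl3 (0.99) and Sik1 (0.98) just outside. In HFSCs the members with the highest differences were Klk6 (0.96), Pde4b (0.92) and Cacna1g (0.85), while Sox9 (1.00), Steap4 (1.03) and Robo2 (1.06) reached 1 and so are no members.

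Promoter sequences from RefSeq (build GRCm38.p6) matched 68 of the 87 members, 63 by symbol and 5 by a synonym on the same chromosome. The 250 bases before the transcription start are shown for 4 members: Lgr6 and Igfbp4, which head the receptors and the K15-CrePGR differences of the secreted members, and Lmo1 and Slc16a1, whose Shh-CreER differences were among the largest and which have a window with the GC-rich element GGCGCC that BMP-activated Smads are known to bind. RefSeq lists a second Lmo1 start, whose window (chr7:109175208-109175457) overlaps the printed one and holds 0 such elements. Capitals mark GGCGCC, which reads the same on both strands.
Lgr6 (chr1:135105277-135105526, minus strand): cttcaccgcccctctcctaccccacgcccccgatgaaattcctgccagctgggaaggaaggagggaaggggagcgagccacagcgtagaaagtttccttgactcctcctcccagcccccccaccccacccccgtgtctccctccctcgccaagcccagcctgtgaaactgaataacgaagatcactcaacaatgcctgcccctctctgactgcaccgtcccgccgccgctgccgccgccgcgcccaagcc
Igfbp4 (chr11:99040994-99041243, plus strand): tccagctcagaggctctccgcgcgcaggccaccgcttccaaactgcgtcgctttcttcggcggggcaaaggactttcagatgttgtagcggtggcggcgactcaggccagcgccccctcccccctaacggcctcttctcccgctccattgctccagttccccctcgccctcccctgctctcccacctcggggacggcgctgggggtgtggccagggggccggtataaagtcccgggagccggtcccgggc
Lmo1 (chr7:109175150-109175399, minus strand): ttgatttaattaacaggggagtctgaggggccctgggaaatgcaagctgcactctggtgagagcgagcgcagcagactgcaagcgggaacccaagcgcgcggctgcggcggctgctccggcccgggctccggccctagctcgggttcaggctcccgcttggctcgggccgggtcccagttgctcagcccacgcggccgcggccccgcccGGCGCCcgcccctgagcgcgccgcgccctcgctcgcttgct
Slc16a1 (chr3:104638414-104638663, plus strand): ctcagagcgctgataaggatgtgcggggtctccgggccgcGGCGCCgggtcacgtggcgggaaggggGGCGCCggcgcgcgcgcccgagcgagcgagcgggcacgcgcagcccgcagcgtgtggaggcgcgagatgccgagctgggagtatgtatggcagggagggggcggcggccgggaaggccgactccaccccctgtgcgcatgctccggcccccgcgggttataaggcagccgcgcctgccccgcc
Of the 68 members 16 (23.5%) held GGCGCC in at least 1 window, as did 20.5% of the 7601 kept genes with a promoter in the same table and 10.8% of all 27025 genes there. The window was GC-rich, with a median of 63.0% G and C in members and 60.4% in kept genes. Other motifs searched on both strands were GGAATG, the core bound by TEAD factors (11.8% of members, 12.4% of kept genes), CTTTGAA, bound by TCF and LEF factors (4.41% and 3.74%), TGANTCA, bound by AP-1 (8.82% and 5.34%), and ACGTGC, bound by hypoxia-inducible factors (11.8% and 8.38%). These matches are a description of the letters in the window.

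Among the 14 secreted signals and their modulators, genes that carry or restrain Wnt, insulin-like growth factor (IGF), platelet-derived growth factor (PDGF) and BMP signals were all represented. Igfbp4, a secreted protein that binds IGFs, was at 188 FPKM in cKO and 59.6 FPKM in Het Shh-CreER TACs. In K15-CrePGR TACs Igfbp4 was at 153 and 129.6 FPKM in KO 64 and KO 84, against 18.5 and 17.2 FPKM in WT 52 and WT 57. The difference of Igfbp4 was 2.91 with a pooled SD of 0.13, and the rule used this contrast. Its relative Igfbp2 was at 113 FPKM in cKO and 25.9 FPKM in Het Shh-CreER TACs, and at 17.8 and 7.81 FPKM in KO against 1.07 and 0.705 FPKM in WT K15-CrePGR TACs. The highest listed level of Igfbp2 was in the Shh-CreER cKO library, across tables that were normalized separately. The rule favours KO samples above WT samples, so nothing is read from their order.

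The Wnt ligand Wnt8a was at 18.005 FPKM in cKO and 4.599 FPKM in Het Shh-CreER TACs, and at 7.56 and 9.75 FPKM in KO against 2.39 and 1.43 FPKM in WT K15-CrePGR TACs. In HFSCs it was close to absent, at 0.0412 FPKM in cKO and 0.0235 FPKM in Het. Wnt16, a second Wnt ligand, had 3.41 FPKM in cKO and 0.735 FPKM in Het Shh-CreER TACs, and 2.49 and 2.10 FPKM in KO against 0.0466 and 0.0423 FPKM in WT samples. Both ligands were thus present in all 3 deleted TAC libraries, and Wnt16 was close to absent in the WT samples. Sfrp5, a secreted antagonist of Wnt ligands, was at 5.32 FPKM in cKO and 0.735 FPKM in Het Shh-CreER TACs, and at 3.96 and 7.14 FPKM in KO against 0.309 and 0.127 FPKM in WT samples. An antagonist was therefore higher in the same libraries as the ligands.

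Ctgf, a matricellular protein and a known target of TGF-beta and YAP signalling, was at 35.3 FPKM in cKO and 6.58 FPKM in Het Shh-CreER TACs, and at 20.4 and 16.4 FPKM in KO against 4.64 and 3.39 FPKM in WT samples. In HFSCs it was an abundant transcript at 310.2 FPKM in cKO and 559 FPKM in Het, a difference in the opposite direction (-0.85). Nbl1, a secreted BMP antagonist of the DAN family, had 16.2 FPKM in cKO and 6.90 FPKM in Het Shh-CreER TACs, and 23.8 and 22.4 FPKM in KO against 5.15 and 4.81 FPKM in WT samples. It had the smallest pooled SD of the members (0.06) at a difference of 2.01, and in HFSCs it was at 154 FPKM in cKO and 258 FPKM in Het. Scube1, a secreted and membrane-bound protein with EGF-like repeats, was at 47.2 FPKM in cKO and 15.9 FPKM in Het Shh-CreER TACs, and at 15.4 and 30.9 FPKM in KO against 2.77 and 4.05 FPKM in WT samples. It was nearly absent from HFSCs (0.0749 FPKM in cKO, 0.00457 FPKM in Het).

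The other secreted members were the axon guidance signal Sema3c, the growth factors Pdgfb and Pdgfc, the Csf1 receptor ligand Il34, and Wfdc2 and Megf6. Their differences lay between 1.03 and 2.03 in Shh-CreER TACs and between 1.00 and 1.94 in K15-CrePGR TACs. Pdgfc was high in KO 64 alone among the K15-CrePGR samples: it was at 5.01 FPKM there and 0.882 FPKM in KO 84, against 0.782 and 0.581 FPKM in WT samples.

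The 14 receptors and surface proteins were led by Lgr6, a receptor for R-spondins and a marker of isthmus stem cells (mm9 chromosome 1, 136879847 to 137001853, the locus as listed). Lgr6 was at 46.6 FPKM in cKO and 3.92 FPKM in Het Shh-CreER TACs. It was at 36.1 and 27.2 FPKM in KO 64 and KO 84, against 3.88 and 5.84 FPKM in WT 52 and WT 57. The differences of 3.27 and 2.49 gave the largest smaller-of-both value of any member, while the HFSC libraries were level at 22.2 FPKM in both. Of the 8 isthmus and infundibulum genes on a list, 6 were kept in each TAC table, and 3 were higher by at least 1 in Shh-CreER cKO TACs (median 1.35) and 5 in K15-CrePGR KO TACs (median 2.45). Over all genes kept in those tables the shares were 2.67% and 9.98%, with medians of 0.01 and -0.03. Lgr6 is the member on that list.

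Edar, the receptor for ectodysplasin, was at 52.5 FPKM in cKO and 14.1 FPKM in Het Shh-CreER TACs, and at 18.4 and 31.7 FPKM in KO against 2.55 and 5.94 FPKM in WT samples. In HFSCs Edar was low (1.22 FPKM in cKO, 0.341 FPKM in Het). It was the single member among 15 matrix and hair lineage genes, of which 1 was higher and 7 were lower by at least 1 in Shh-CreER cKO TACs (median -0.86). In K15-CrePGR KO TACs 3 of 13 kept genes of that list were higher and 3 lower (median -0.45). The shares lower by at least 1 among all genes there were 2.77% and 2.56%, and the shares higher were 2.67% and 9.98%. Lrp4, a surface protein that restrains Wnt signalling, was at 107 FPKM in cKO and 48.8 FPKM in Het Shh-CreER TACs, and at 22.3 and 30.2 FPKM in KO against 5.88 and 8.42 FPKM in WT samples. Ephb4, a receptor for ephrin-B ligands, was at 42.9 FPKM in cKO and 17.0 FPKM in Het, and at 21.6 and 34.5 FPKM in KO against 10.6 and 10.8 FPKM in WT samples. Both receptors were thus at 5.88 FPKM or more in every control TAC library, while the calcium channel gene Cacna1g was at 1.05 FPKM or less there. Cacna1g was at 7.57 FPKM in cKO and 1.05 FPKM in Het Shh-CreER TACs, and at 6.70 and 12.4 FPKM in KO against 0.251 and 0.339 FPKM in WT samples, the largest K15-CrePGR difference of the members (2.97).

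Fgfr1, a fibroblast growth factor receptor, was at 51.97 FPKM in cKO and 25.4 FPKM in Het Shh-CreER TACs, and at 52.1 and 31.5 FPKM in KO against 13.3 and 12.5 FPKM in WT samples. Pvrl3, the adhesion protein nectin-3, was at 6.61 FPKM in cKO and 1.90 FPKM in Het Shh-CreER TACs, and at 10.2 and 17.4 FPKM in KO against 3.92 and 3.54 FPKM in WT samples. In HFSCs Pvrl3 stood the other way, with 3.17 FPKM in cKO and 14.1 FPKM in Het. Among 3 further surface genes, KO 64 was the higher of the KO samples. The TGF-beta co-receptor Tgfbr3 was at 6.77 FPKM in KO 64 and 1.124 FPKM in KO 84, against 0.659 and 0.317 FPKM in WT samples. T-cadherin (Cdh13) was at 7.98 FPKM in KO 64 and 1.22 FPKM in KO 84, against 1.29 and 0.198 FPKM in WT samples, so KO 84 lay within the WT range. Embigin (Emb), a chaperone of monocarboxylate transporters, was at 13.8 FPKM in KO 64 and 4.52 FPKM in KO 84, against 3.87 and 2.59 FPKM in WT samples. Ccrl1, an atypical chemokine receptor, was at 7.83 FPKM in cKO and 2.27 FPKM in Het Shh-CreER TACs, and at 4.47 and 3.17 FPKM in KO against 0.917 and 0.545 FPKM in WT samples. It was far more abundant in HFSCs, at 100.3 FPKM in cKO and 171 FPKM in Het. The remaining surface members were Tspan18, Tnfrsf18 and the Nogo receptor gene Rtn4r, with differences between 1.03 and 1.24 in Shh-CreER TACs and between 1.18 and 1.71 in K15-CrePGR TACs.

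Of the 9 genes of transcription, chromatin and cell cycle, Lmo1 had the largest Shh-CreER difference of all members (3.59). Lmo1, a LIM-only transcriptional cofactor, was at 113 FPKM in cKO and 8.43 FPKM in Het Shh-CreER TACs. It was at 14.3 and 9.19 FPKM in KO against 3.36 and 2.10 FPKM in WT K15-CrePGR TACs. In HFSCs it was at 159 FPKM in cKO and 94.8 FPKM in Het, in a table that was normalized separately. Cdkn2a, which encodes the cell cycle inhibitors p16 and p19, was at 9.66 FPKM in cKO and 2.36 FPKM in Het Shh-CreER TACs, and at 1.77 and 6.34 FPKM in KO against 0.260 and 0.191 FPKM in WT samples. KO 84 was the higher of the KO samples, and both exceeded the WT samples, which the rule favours. Of 6 kept cyclin-dependent kinase inhibitor genes, Cdkn2a was the one higher by at least 1 in either TAC deletion, with list medians of 0.04 and 0.18. On that list 1 gene was lower by at least 1 in Shh-CreER cKO TACs (2.77% of all genes there). In K15-CrePGR KO TACs 0 were (2.56% of all genes there). Over all genes of those tables the shares higher were 2.67% and 9.98%.

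Ovol2, a zinc finger factor that maintains epithelial identity, was at 17.4 FPKM in cKO and 7.95 FPKM in Het Shh-CreER TACs, and at 13.8 and 21.5 FPKM in KO against 1.86 and 1.74 FPKM in WT samples (differences 1.04 and 2.70). Trp73, a relative of p53 and p63, was at 21.8 FPKM in cKO and 6.998 FPKM in Het Shh-CreER TACs, and at 3.78 and 3.01 FPKM in KO against 0.669 and 1.00 FPKM in WT samples. The 2 factors thus differed in which deletion showed the larger difference. Bcl11b, a zinc finger factor, was at 6.44 FPKM in cKO and 2.27 FPKM in Het Shh-CreER TACs, and at 7.67 and 6.46 FPKM in KO against 2.19 and 1.76 FPKM in WT samples. Bhlhe41, a repressor of the circadian clock, was at 3.07 FPKM in cKO and 0.617 FPKM in Het Shh-CreER TACs, and at 3.12 and 6.09 FPKM in KO against 0.442 and 0.115 FPKM in WT samples, with both controls under 1 FPKM. For Bcl11b, Bhlhe41, Mef2a and the DNA methyltransferase gene Dnmt3a the KO samples lay above the WT samples, which the rule favours. Their K15-CrePGR differences lay between 1.09 and 2.09. Epas1, the hypoxia-inducible factor 2 alpha gene, was at 7.41 FPKM in KO 64 and 1.56 FPKM in KO 84, against 1.03 and 1.22 FPKM in WT samples. None of the 22 DNA replication and mitosis genes listed is a member (0 of 22). In cKO HFSCs 21 of 22 were higher by at least 1 (median 1.60; 5.91% of all genes there), so the rule barred these 21 whatever the TACs showed. In Shh-CreER cKO TACs 0 of 22 kept genes of that list were higher by at least 1 (median 0.17; 2.67% of all genes there). In K15-CrePGR KO TACs 0 of 19 were (median -0.19; 9.98% of all genes there).

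**Figure D2:**
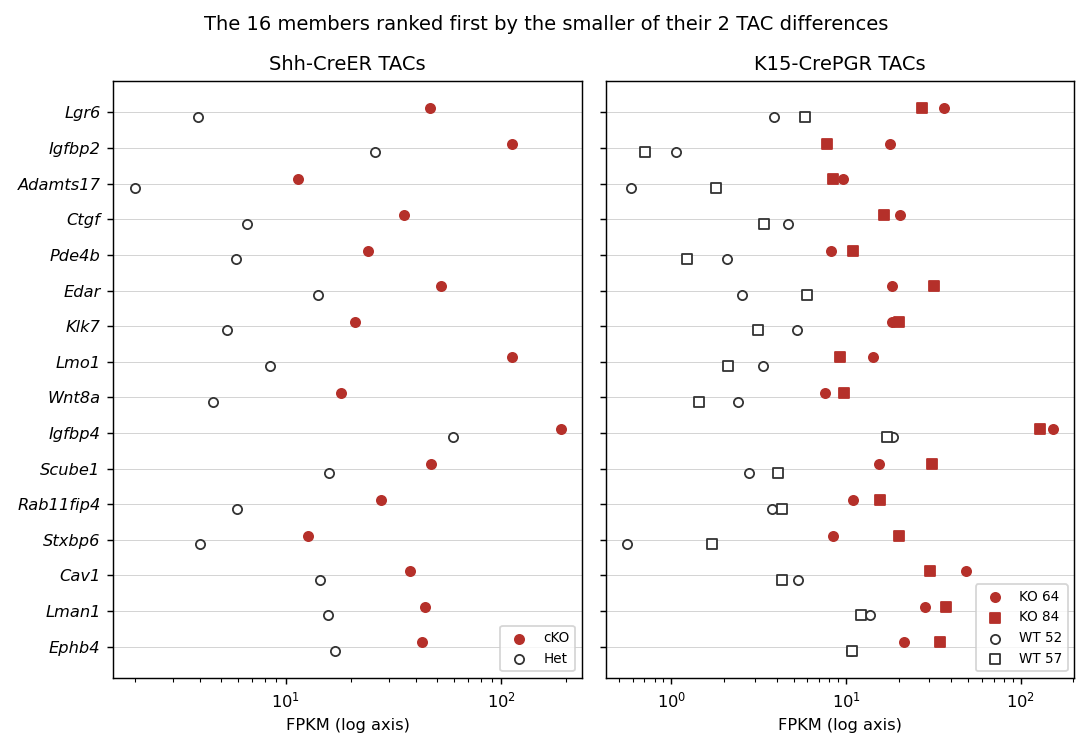
FPKM on a log axis for 16 members that reach a mean of 5 FPKM in both TAC tables and rank first by the smaller of their TAC differences. The left panel holds Shh-CreER TACs and the right panel K15-CrePGR TACs. Filled red symbols are deleted libraries (cKO, KO 64, KO 84) and open symbols are controls (Het, WT 52, WT 57); within each panel, every filled symbol of a row lies to the right of the open ones of that row.

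The 12 members of matrix, adhesion and cytoskeleton included proteases, basement membrane proteins and actin-linked proteins. Cav1, the main protein of caveolae, was at 37.7 FPKM in cKO and 14.4 FPKM in Het Shh-CreER TACs, and at 48.5 and 30.4 FPKM in KO against 5.31 and 4.29 FPKM in WT samples. Adamts17, a secreted metalloprotease gene, was at 11.4 FPKM in cKO and 1.99 FPKM in Het, and at 9.53 and 8.38 FPKM in KO against 0.587 and 1.81 FPKM in WT samples. Its relative Adamts9 had differences of 1.23 and 2.11. Npnt, or nephronectin, a basement membrane protein of the bulge, was at 25.3 FPKM in cKO and 11.04 FPKM in Het Shh-CreER TACs, and at 8.53 and 12.2 FPKM in KO against 0.952 and 1.76 FPKM in WT samples. Npnt was the single member among 22 bulge markers, of which 3 of 19 kept genes were higher by at least 1 in Shh-CreER cKO TACs (median 0.37; 2.67% of all genes there) and 13 of 18 in K15-CrePGR KO TACs (median 1.63; 9.98% of all genes there).

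Dst, whose epithelial product links keratin filaments to hemidesmosomes, was at 4.45 FPKM in cKO and 1.71 FPKM in Het Shh-CreER TACs, and at 15.2 and 6.97 FPKM in KO against 2.84 and 2.70 FPKM in WT samples. It was the single member among 25 basement membrane and adhesion genes, of which 2 of 25 were higher by at least 1 in Shh-CreER cKO TACs (median 0.33; 2.67% of all genes there) and 13 of 23 in K15-CrePGR KO TACs (median 1.01; 9.98% of all genes there). Anxa2, a calcium-dependent membrane-binding protein, was the most abundant member at 362 FPKM in cKO and 169 FPKM in Het Shh-CreER TACs, and 369 and 642 FPKM in KO against 225 and 195 FPKM in WT samples. Aif1l, an actin-bundling protein, had the lowest HFSC difference of the members, at 1.34 FPKM in cKO and 15.2 FPKM in Het (-2.79). In TACs Aif1l was at 15.4 FPKM in cKO and 5.48 FPKM in Het with Shh-CreER, and at 7.15 and 5.05 FPKM in KO against 0.987 and 1.16 FPKM in WT samples. Tinagl1 was high in KO 64 alone of the K15-CrePGR samples, at 7.96 FPKM there and 0.922 FPKM in KO 84, against 0.627 and 0.702 FPKM in WT samples. Nav2, a cytoskeleton-associated protein known from neurite growth, was at 13.9 FPKM in cKO and 3.63 FPKM in Het Shh-CreER TACs, and at 4.86 and 6.79 FPKM in KO against 1.303 and 1.37 FPKM in WT samples. Filip1l, a filamin-interacting protein, was at 32.4 FPKM in cKO and 13.4 FPKM in Het Shh-CreER TACs, and at 13.4 and 20.95 FPKM in KO against 2.399 and 2.52 FPKM in WT samples. Both were even between the KO samples relative to their distance from the WT samples, unlike Tinagl1. Matn4, a matrilin of the extracellular matrix, was at 3.61 FPKM in cKO and 0.673 FPKM in Het Shh-CreER TACs, and at 2.94 and 1.01 FPKM in KO against 0.1798 and 0.2497 FPKM in WT samples.

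Of the 12 genes of lipid, retinoid and redox metabolism, 9 were lower in cKO than in Het HFSCs, 6 of them by at least 1. Among kept genes with an HFSC difference under 1, 45.3% were lower and 2.9% lower by at least 1, and no difference between roles was tested. Adh7, an alcohol dehydrogenase that oxidizes retinol, was at 38.0 FPKM in cKO and 4.41 FPKM in Het Shh-CreER TACs, and at 5.21 and 2.10 FPKM in KO against 0.750 and 0.410 FPKM in WT samples. Crabp2, which carries retinoic acid within cells, was at 22.5 FPKM in cKO and 3.96 FPKM in Het, and at 5.53 and 7.41 FPKM in KO against 2.35 and 1.87 FPKM in WT samples. The aldehyde dehydrogenase gene Aldh3a1 was at 20.7 FPKM in cKO and 6.06 FPKM in Het, and at 9.03 and 4.05 FPKM in KO against 0.436 and 0.230 FPKM in WT samples. These 3 genes are members of an 18-gene list of oxidative stress and retinoid metabolism. Of its kept genes, 4 of 16 were higher by at least 1 in Shh-CreER cKO TACs (median 0.04; 2.67% of all genes there). In K15-CrePGR KO TACs 6 of 17 were higher (median 0.48; 9.98% of all genes there). The list was also higher in cKO HFSCs, by at least 1 for 6 of 16 kept genes (median 0.55; 5.91% of all genes there). In HFSCs Adh7, Crabp2 and Aldh3a1 had differences of 0.21, -0.08 and -0.27.

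Sebaceous lipid genes made up 3 further members. Fa2h, a fatty acid 2-hydroxylase, was at 17.3 FPKM in cKO and 6.13 FPKM in Het Shh-CreER TACs, and at 8.52 and 3.04 FPKM in KO against 0.513 and 0.198 FPKM in WT samples, but at 17.97 FPKM in cKO and 64.3 FPKM in Het HFSCs. Cidea, a lipid droplet protein, was at 13.0 FPKM in cKO and 4.05 FPKM in Het Shh-CreER TACs, and at 3.91 and 2.28 FPKM in KO against 0.260 and 0.161 FPKM in WT samples, but at 8.44 FPKM in cKO and 33.4 FPKM in Het HFSCs. Far2, which makes wax alcohols, was at 21.0 FPKM in cKO and 7.82 FPKM in Het Shh-CreER TACs, and at 6.80 and 2.67 FPKM in KO against 1.67 and 1.26 FPKM in WT samples, but at 11.96 FPKM in cKO and 40.1 FPKM in Het HFSCs. All 3 were thus higher in the deleted TACs and lower in the deleted HFSC library. All 3 were also higher in KO 64 than in KO 84, as were 44 of the 87 members. Of the 17 sebaceous genes on the list, 8 of 16 kept genes were higher by at least 1 in Shh-CreER cKO TACs (median 1.03). In K15-CrePGR KO TACs 7 of 13 were higher (median 1.12). Over all genes of those tables the shares were 2.67% and 9.98%. In cKO HFSCs 11 of 16 were lower by at least 1 (median -1.37), where 4.61% of all genes of that table were. The summed level of the list was 1119 FPKM in cKO and 790 FPKM in Het Shh-CreER TACs, 646 and 559 FPKM in KO against 907 and 970.5 FPKM in WT K15-CrePGR TACs, and 515 FPKM in cKO and 1248 FPKM in Het HFSCs. In K15-CrePGR TACs the sum thus stood lower in KO although the median of the genes was positive. Whether the number of sebaceous cells in a library moved these members was not tested.

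Sdr16c6, a short-chain dehydrogenase gene, was at 31.1 FPKM in cKO and 6.21 FPKM in Het Shh-CreER TACs, and at 10.2 and 5.12 FPKM in KO against 1.21 and 0.5005 FPKM in WT samples. Glul, glutamine synthetase, was at 58.5 FPKM in cKO and 26.9 FPKM in Het, and at 82.3 and 51.5 FPKM in KO against 11.3 and 8.26 FPKM in WT samples. The flavin monooxygenase gene Fmo2 was at 4.94 FPKM in cKO and 1.01 FPKM in Het Shh-CreER TACs and at 11.96 and 15.4 FPKM in KO against 2.00 and 1.37 FPKM in WT samples, with 0.881 FPKM in cKO and 4.27 FPKM in Het HFSCs. Glul was the member of these with a higher level in the deleted HFSC library (difference 0.75). Hpgds, a prostaglandin D synthase, was at 27.7 FPKM in cKO and 7.66 FPKM in Het Shh-CreER TACs, and at 5.73 and 1.59 FPKM in KO against 1.21 and 0.687 FPKM in WT samples. Dhrs7, a short-chain dehydrogenase, was at 28.1 FPKM in cKO and 12.6 FPKM in Het Shh-CreER TACs, and at 14.5 and 9.92 FPKM in KO against 5.55 and 4.17 FPKM in WT samples. Both were higher in KO 64 than in KO 84 and lower in the cKO HFSC library. Chdh, choline dehydrogenase, was at 9.45 FPKM in cKO and 3.34 FPKM in Het Shh-CreER TACs, and at 6.11 and 7.88 FPKM in KO against 1.34 and 0.991 FPKM in WT samples.

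Of the 6 transporters and membrane enzymes, Slc16a1, the monocarboxylate transporter MCT1, was at 46.4 FPKM in cKO and 4.89 FPKM in Het Shh-CreER TACs. In K15-CrePGR TACs it was at 4.34 FPKM in KO 64 and 1.01 FPKM in KO 84, against 0.241 and 0.227 FPKM in WT samples. The difference was large in the first deletion (3.01) and uneven between the KO samples of the second (1.41, pooled SD 0.70). Slc22a4, an organic cation transporter gene, was at 6.43 FPKM in cKO and 1.64 FPKM in Het Shh-CreER TACs, and at 5.95 and 7.23 FPKM in KO against 0.588 and 0.772 FPKM in WT samples. Ece1, an endothelin-converting enzyme, was at 30.4 FPKM in cKO and 13.1 FPKM in Het, and at 146 and 193 FPKM in KO against 61.6 and 67.6 FPKM in WT samples. Slco3a1, an organic anion transporter gene, was at 13.9 FPKM in cKO and 3.69 FPKM in Het Shh-CreER TACs, and at 28.2 and 39.95 FPKM in KO against 15.1 and 16.6 FPKM in WT samples. Slco3a1 and the ectonucleotidase gene Enpp1 had K15-CrePGR differences near the threshold (1.04 and 1.02). Atp6v0c, a subunit of the vacuolar proton pump, had 9.20 FPKM in cKO Shh-CreER TACs, and the Het library listed it at 0. Since an exact 0 can be a failed estimate for a gene that cells generally use, and since WT 52 had 15.9 FPKM but WT 57 had 2.25 FPKM (KO 64 and KO 84 had 34.0 and 31.1 FPKM), its place among the members is uncertain.

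The 4 members of epidermal differentiation were Klk7, Klk6, Calm4 and Ly6g6c. Klk7, a kallikrein protease that cleaves the junctions of cornified cells, was at 21.0 FPKM in cKO and 5.31 FPKM in Het Shh-CreER TACs, and at 18.4 and 19.96 FPKM in KO against 5.20 and 3.11 FPKM in WT samples. Calm4, a calcium-binding protein of the epidermis, was at 72.5 FPKM in cKO and 17.3 FPKM in Het, and at 25.9 and 34.0 FPKM in KO against 18.4 and 9.25 FPKM in WT samples. Klk6, a related kallikrein, was at 4.77 FPKM in cKO and 1.23 FPKM in Het Shh-CreER TACs, and at 5.21 and 5.68 FPKM in KO against 0.377 and 0.0347 FPKM in WT samples, but shares a listed locus with Klk7. Ly6g6c, a surface protein of the Ly6 family, was at 10.8 FPKM in cKO and 4.37 FPKM in Het Shh-CreER TACs, and at 20.6 and 14.9 FPKM in KO against 6.62 and 3.57 FPKM in WT samples. The KO and WT samples did not overlap for any of the 4, as in 86 of the 87 members and 28.6% of all kept genes. The rule used this contrast, so nothing is read from it. All 4 were higher in HFSCs, with Calm4 at 590.4 FPKM in cKO and 1103 FPKM in Het. Of 20 epidermal differentiation genes on the list, 4 of 16 kept genes were higher by at least 1 in Shh-CreER cKO TACs (median 0.33), 9 of 14 in K15-CrePGR KO TACs (median 1.16) and 0 of 18 in cKO HFSCs, where 11 were lower (median -1.23). The shares of all genes higher by at least 1 were 2.67%, 9.98% and 5.91% in these tables, and 4.61% were lower in cKO HFSCs. The list summed to 616 and 325 FPKM in cKO and Het Shh-CreER TACs and to 650 and 467 FPKM in KO against 355 and 242 FPKM in WT K15-CrePGR TACs, and the part of such cells in the members was not tested.

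Intracellular signalling and traffic held 9 members. Pde4b, a phosphodiesterase that degrades cyclic AMP, was at 24.03 FPKM in cKO and 5.90 FPKM in Het Shh-CreER TACs, and at 8.22 and 10.96 FPKM in KO against 2.07 and 1.22 FPKM in WT samples. Rab11fip4, which acts in endosome recycling, was at 27.8 FPKM in cKO and 5.91 FPKM in Het, and at 10.9 and 15.7 FPKM in KO against 3.75 and 4.28 FPKM in WT samples. Their HFSC values stood in opposite directions, with 22.0 FPKM in cKO and 11.2 FPKM in Het for Pde4b and 5.24 FPKM in cKO and 16.2 FPKM in Het for Rab11fip4. Stxbp6, a syntaxin-binding protein, was at 12.7 FPKM in cKO and 4.004 FPKM in Het, and at 8.46 and 20.1 FPKM in KO against 0.557 and 1.71 FPKM in WT samples. Lman1, a cargo receptor between the endoplasmic reticulum and Golgi, was at 44.2 FPKM in cKO and 15.8 FPKM in Het, and at 28.4 and 37.3 FPKM in KO against 13.7 and 12.2 FPKM in WT samples. Dusp4, a phosphatase that acts on MAP kinases, was low throughout, at 3.71 FPKM in cKO and 0.761 FPKM in Het Shh-CreER TACs, and 2.86 and 1.26 FPKM in KO against 0.423 and 0.315 FPKM in WT samples. Sh3rf3, a scaffold with SH3 domains, was at 6.51 FPKM in cKO and 1.69 FPKM in Het Shh-CreER TACs, and at 3.93 and 4.67 FPKM in KO against 0.578 and 0.492 FPKM in WT samples. Syt14, a synaptotagmin, was at 2.38 FPKM in cKO and 0.226 FPKM in Het Shh-CreER TACs, and at 0.997 and 3.56 FPKM in KO against 0.0877 and 0.0737 FPKM in WT samples, and was close to absent in HFSCs. Sh3rf3, Syt14, Rasgrp2 and Plscr4 were at most 8.72 FPKM in any TAC library. No role was assigned to the last 7 members: Ccdc164, Fam13a, Ggta1, Enox1, Rcbtb1, 5730419I09Rik and 2310003H01Rik. Ccdc164 was at 10.4 FPKM in cKO and 1.16 FPKM in Het Shh-CreER TACs, and at 3.15 and 9.87 FPKM in KO against 0.669 and 1.12 FPKM in WT samples, and had the largest Shh-CreER difference of the 7 (2.40). Fam13a was at 6.35 FPKM in cKO and 1.64 FPKM in Het Shh-CreER TACs, and at 1.99 and 3.201 FPKM in KO against 0.278 and 0.302 FPKM in WT samples. Ggta1 was at 9.74 FPKM in cKO and 3.88 FPKM in Het Shh-CreER TACs, and at 10.7 and 14.7 FPKM in KO against 3.004 and 2.76 FPKM in WT samples. All 7 were higher in KO 84 than in KO 64, as were 43 of the 87 members. The median of KO 84 minus KO 64 over all kept genes was 0.03, and nothing is read from the count. Enox1 was at 3.93 FPKM in cKO and 0.679 FPKM in Het Shh-CreER TACs, and at 1.31 and 2.26 FPKM in KO against 0.258 and 0.294 FPKM in WT samples. 5730419I09Rik was at 11.1 FPKM in cKO and 2.59 FPKM in Het Shh-CreER TACs, and at 4.35 and 5.57 FPKM in KO against 2.58 and 1.31 FPKM in WT samples.

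**Figure D3:**
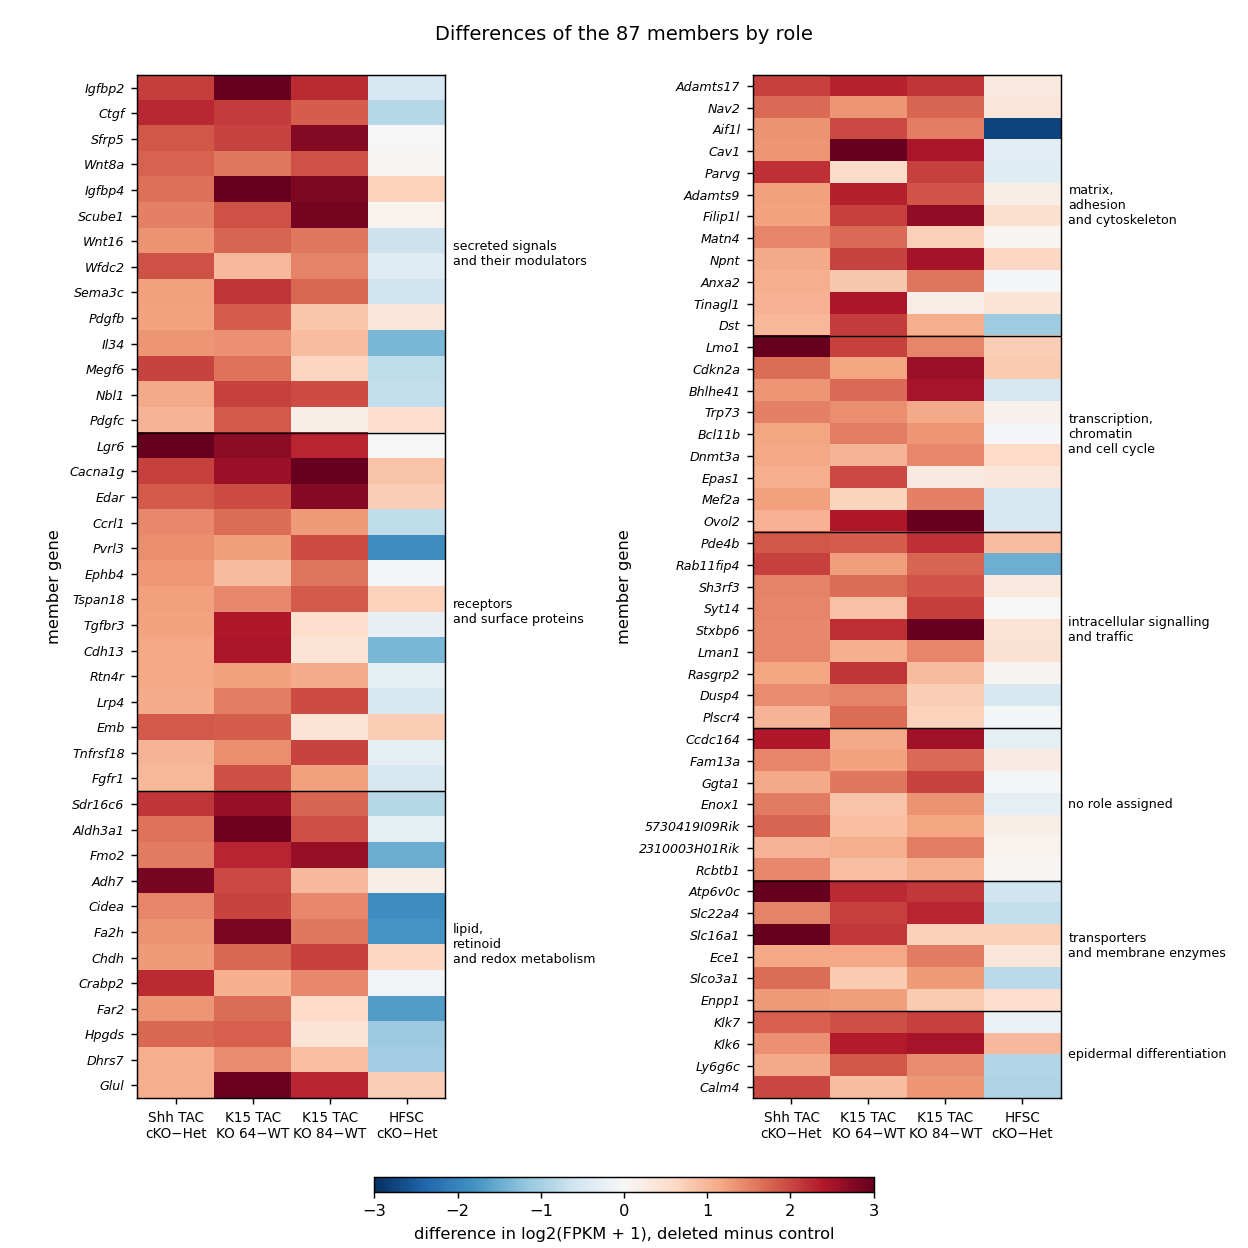
Difference in log2(FPKM + 1) for the 87 members by role (rows) in Shh-CreER TACs (cKO minus Het), in KO 64 and KO 84 (each minus the mean of 2 WT samples) and in HFSCs (cKO minus Het); colours stop at 3 and -3. The rule holds the first column and the mean of the KO columns at 1 or more. Single KO cells can be pale, such as Pdgfc (0.17) and Tinagl1 (0.21) in KO 84 and Parvg (0.54) in KO 64. The HFSC column runs from 0.96 down to -2.79, with most of its deep blue cells among the metabolic genes, Aif1l and Pvrl3.

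In HFSCs the rule set an upper limit but no lower one. There 47 of 87 members (54%) were lower in cKO than in Het, against 45.3% of the kept genes with an HFSC difference under 1, and 12 (13.8%) were lower by at least 1, against 2.9%. The 12 were Aif1l (-2.79), Cidea (-1.87), Pvrl3 (-1.86), Fa2h (-1.78), Far2 (-1.67), Fmo2 (-1.49), Rab11fip4 (-1.47), Il34 (-1.36), Cdh13 (-1.36), Hpgds (-1.09), Dst (-1.06) and Dhrs7 (-1.05). The median HFSC difference was -0.06 over the members and 0.04 over those kept genes. Without KO 64, the members chosen by the same rule had 6 such genes. There was 1 HFSC library per genotype, so these counts have no replicate check, and sex cannot be told apart from genotype there.

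Control HFSCs already expressed most members above the level listed in control TACs. Het HFSCs had the higher listed FPKM than Het Shh-CreER TACs in 65 of 87 members (74.7%), against 34.7% of all kept genes, and the median member was at 15.2 FPKM in Het HFSCs and 3.96 FPKM in Het Shh-CreER TACs. Over all kept genes these medians were 13.3 and 16.6 FPKM. The levels stand across tables that were normalized separately, and the rule itself favours genes with a low value in the Het TAC library, so no test was made. At least 10 FPKM in Het HFSCs was reached by 52 members (59.8%, against 58.8% of kept genes), among them Anxa2 (1499 FPKM), Calm4 (1103 FPKM), Ctgf (559 FPKM) and Cav1 (304 FPKM).

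Under 1 FPKM in Het HFSCs were 15 members (17.2%, against 7.62% of kept genes): Adamts17, Cacna1g, Ccdc164, Cdkn2a, Edar, Matn4, Parvg, Rasgrp2, Scube1, Sfrp5, Sh3rf3, Stxbp6, Syt14, Wfdc2 and Wnt8a. Of these, Scube1, Edar, Wnt8a, Stxbp6 and Wfdc2 were at 15.9, 14.1, 4.599, 4.004 and 3.56 FPKM in Het Shh-CreER TACs. The limits of 1 and 10 FPKM were no part of the rule and were chosen with the data in view.

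The members' differences between KO 64 and KO 84 are described here along the same split. The rule used both KO samples and the Het HFSC library, so these values are no independent observation. Of the 15 members under 1 FPKM in Het HFSCs, 12 were higher in KO 84 than in KO 64, with a median difference of 0.76, whereas 26.4% of the 810 kept genes in the same range were higher in KO 84 (median -0.67). Of the 52 members at 10 FPKM or more, 22 were higher in KO 84 (median -0.25), against 59.9% of 6256 kept genes (median 0.09). Over the 87 members the Spearman correlation between log2(FPKM + 1) in Het HFSCs and the difference of KO 84 minus KO 64 was -0.26, and over the 10634 kept genes it was 0.22. These are correlations across genes of the same libraries, which are not independent, and carry no p.

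The members higher by at least 1 in KO 64 than in KO 84 numbered 14 (7.22% of all kept genes were so), and those higher by at least 1 in KO 84 numbered 5 (1.5% of kept genes). The 14 were Tinagl1, Cdh13, Tgfbr3, Epas1, Pdgfc, Emb, Slc16a1, Hpgds, Fa2h, Rasgrp2, Igfbp2, Far2, Dst and Adh7, and the 5 were Parvg, Cdkn2a, Ccdc164, Syt14 and Stxbp6. Parvg, an actin-binding parvin, was at 5.96 FPKM in KO 84 and 1.45 FPKM in KO 64, against 0.658 and 0.709 FPKM in WT samples, and at 13.0 FPKM in cKO and 2.07 FPKM in Het Shh-CreER TACs. KO 64 also held the high immune and endothelial sums given above, and fibroblast genes summed to 1756 FPKM in KO 64 and 570 FPKM in KO 84, against 466 and 456 FPKM in WT samples. The part of such cells in the 14 genes was not tested. Without KO 64, the K15-CrePGR difference was 0.17 for Pdgfc, 0.21 for Tinagl1, 0.27 for Epas1, 0.40 for Emb and 0.42 for Cdh13. Without KO 64, 64 of the 87 members still met the rule, and without KO 84, 73 did. Without WT 52, 84 did, and without WT 57, 77.

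**Figure D4:**
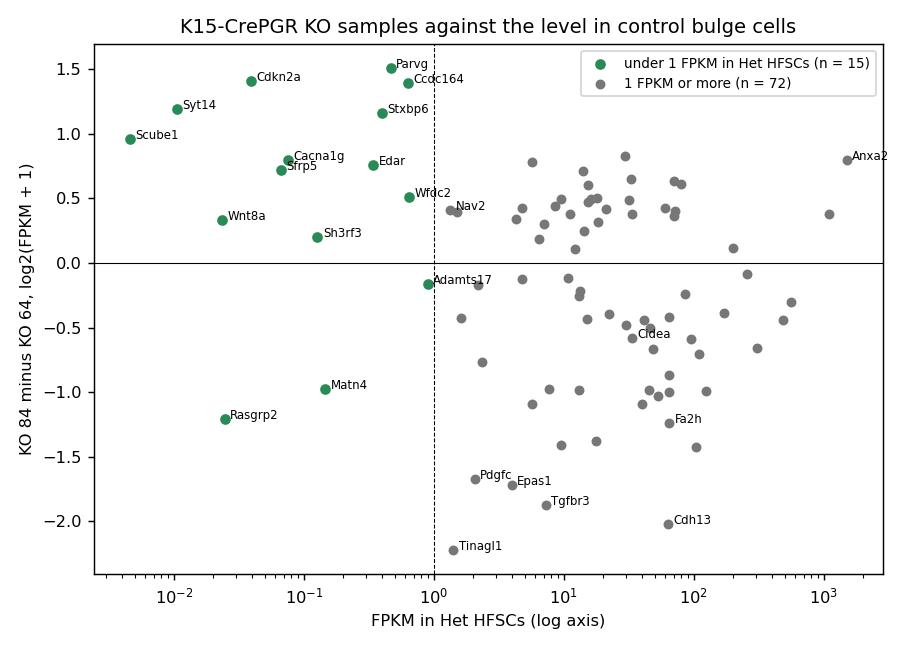
Level of each of the 87 members in Het HFSCs (FPKM, log axis) against its difference between the KO samples of K15-CrePGR TACs (KO 84 minus KO 64, log2(FPKM + 1)). The 15 members under 1 FPKM (green, left of the dashed line) lie above 0 except Adamts17, Matn4 and Rasgrp2, while Tinagl1, Cdh13 and Tgfbr3 lie lowest.

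Several members were neighbours on a chromosome. By the mm9 loci listed in the K15-CrePGR table, 12 of 87 members (13.8%) lay within 500 kb of another member, against 6.96% of all kept genes within that distance of a member. The 6 pairs were Klk6 and Klk7 on chromosome 7, which share a listed locus, Megf6 and Trp73 on chromosome 4 (30.5 kb apart), Ctgf and Enpp1 on chromosome 10 (39.2 kb), Adamts17 and Mef2a on chromosome 7 (77.6 kb), Edar and Sh3rf3 on chromosome 10 (138 kb), and Matn4 and Wfdc2 on chromosome 2 (147 kb). No kept gene lay between the members of the Ctgf and Edar pairs (0 for each). For Klk6 and Klk7 nothing can lie between, since their listed locus is the same. Within the Megf6, Adamts17 and Matn4 pairs lay 2 (Tprgl and Wdr8), 1 (Lysmd4) and 2 (Pigt and Sdc4) kept genes. None of these was higher by at least 1 in both TAC deletions (0 in each pair). The sources used here do not say whether counting used the strand, so reads shared by close neighbours cannot be told apart.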

How the data were processed

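RNA from mouse hair follicle cells was sequenced in 8 libraries. The submitters' processing notes name TopHat, Cufflinks and build mm9, without versions. The authors deposited FPKM in 3 separately normalized tables, with 1 column per library per the file headers. Depth was not given; the commonest ratio between low values (under 0.3 FPKM) put cKO at 0.854 times the depth of Het in HFSCs and 1.00 times in Shh-CreER TACs, and KO 64, KO 84 and WT 57 at 1.08, 0.911 and 1.13 times WT 52. No count model was fitted.

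Unnamed loci were left out, as were symbols with a comma (joined loci) except in the limma fit, which kept them. The entry with the highest mean stood for a repeated symbol. Differences are in log2(FPKM + 1), which understates low genes. K15-CrePGR loci that averaged at least 1 FPKM were tested with limma 3.58.1 in R 4.3.3 (two-sided, intensity trend, Benjamini-Hochberg adjustment over 13565 loci), a procedure tested on simulated data. The labels do not say that replicates are separate animals, so p-values measure the spread between these samples. The members, the 33 gene lists and the roles were chosen with earlier results of these data known. Values per library are given for the 16 members ranked first by the smaller TAC difference at a mean of at least 5 FPKM, for members of a gene list, and for up to 5 per role, and differences for genes next to a threshold; others named were added after their values were seen. Differences and figures were computed in Python 3.11.15 (matplotlib 3.10.9, numpy 2.4.6, pandas 2.3.3).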

Additional observations from a re-analysis of the deposited data

Results flagged for a closer look

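In 11 members the deleted library was lower in HFSCs by at least 1 in log2(FPKM + 1), while the cKO library of Shh-CreER TACs and both KO samples of K15-CrePGR TACs lay above every control of their table. The HFSC differences were -2.79 for Aif1l, -1.87 for Cidea, -1.86 for Pvrl3, -1.78 for Fa2h, -1.67 for Far2, -1.49 for Fmo2, -1.47 for Rab11fip4, -1.36 for Il34, -1.09 for Hpgds, -1.06 for Dst and -1.05 for Dhrs7. The difference between HFSCs and TACs was not tested, since the HFSC libraries stand alone in their group and the tables were normalized separately, and the rule for members favours such genes. Among them were the sebaceous lipid genes Cidea, Fa2h and Far2, in libraries where the sebaceous list summed to 515 FPKM in cKO and 1248 FPKM in Het HFSCs.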

How the results depend on the processing

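The number of members depended on how low values were treated. With a pseudocount of 0.1 in place of 1 there were 152 members, 82 of them among the 87, and with a pseudocount of 5 there were 23, 22 of them among the 87. A minimum mean of 5 FPKM left 38. The members lower by at least 1 in HFSCs numbered 28, 1 and 2 under these settings, against 12. No filter gave 91 members, median scaling 78, quantile normalization 65, joined loci standing for each symbol 89, summed entries of a symbol 88, and an HFSC limit of 0.5 gave 71. Leaving out each K15-CrePGR sample in turn gave between 70 and 93 members and between 6 and 15 members lower in HFSCs (6 without KO 64 and 8 without WT 57). The members called by limma numbered 1, against 2 with a pseudocount of 0.1 or a minimum of 5 FPKM, and 0 with a pseudocount of 5, no filter, quantile normalization, no trend or any sample left out (0 to 0), where the lone sample of a group was assumed to vary like the other group. In those fits between 55 and 76 members had an unadjusted p under 0.05. The causes were not tested. Of the recomputed K15-CrePGR differences of the 87 members 139 moved by more than the pooled SD and 557 did not, and of the Shh-CreER differences 57 fell below 1 and 291 did not; 0 changed sign, which a pseudocount cannot do to a difference between single libraries. No paired analysis was possible because the KO and WT samples share no replicate numbers. Depth limits the members at low FPKM: 8 had both control levels under 1 FPKM.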
